A study of Homo sapiens with 2 samples.

Results

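The genes described here are the WNT ligands, the Frizzled receptors and the genes that modulate them at the cell surface, in 2 untreated lines of prostate cancer (PCa) cells. They are the protein-coding genes of the deposited table that carry a WNT, FZD, DKK or SFRP name, together with WIF1, LRP5, LRP6, ROR1, ROR2, RYK, PORCN, the R-spondin genes, LGR4, LGR5, LGR6, ZNRF3, RNF43 and AXIN2. The rule found 54 genes among 17409 protein-coding genes. RNA-Seq was performed on total RNA of MDA PCa 2b cells, a line from a metastasis of prostate cancer, and RC77 T/E, a line from a prostate tumour immortalized with papillomavirus oncogenes, with 1 library per cell line. MDA PCa 2b cells grew in a serum-containing F-12 medium with cholera toxin, epidermal growth factor, insulin and hydrocortisone. RC77 T/E grew in a keratinocyte medium with epidermal growth factor and pituitary extract. Cell line, medium and library differ together, so their shares in any difference cannot be told apart. Neither line has a replicate, so the values carry no error and were compared without a test. Fewer cells with a transcript and less of it per cell cannot be told apart in such bulk RNA.

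WNT proteins are secreted lipid-modified ligands. PORCN attaches the lipid and WLS carries the ligand to the cell surface, where it binds a Frizzled receptor together with LRP5 or LRP6 and stops the destruction of β-catenin, which then acts with TCF and LEF factors on target genes. Other WNT signals use ROR or RYK receptors and leave β-catenin aside. Secreted inhibitors of the DKK, SFRP and WIF1 kinds block ligand or co-receptor, while R-spondins, through LGR receptors, keep the ubiquitin ligases ZNRF3 and RNF43 from removing Frizzled. In the prostate the pathway is known for its part in budding of the epithelium and in advanced cancer.

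All levels are in TPM, the transcript abundance unit the authors deposited, which relates reads to gene length and library total and can be compared between genes. Read depth is unknown. Many values of 1 TPM or more had lost their decimal mark, which was put back from the deposited mean and standard error of each row. The mark was fixed for 42 of the 54 genes. For the other 12 genes more than 1 position was possible (an open mark), and both lines shift together by a factor of 10 or 100, so all possible levels are given and the ratio between the lines is the same at each of them. Where levels follow each other without the name of a line, that of MDA PCa 2b comes first.

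The marker genes set the lines apart. Of 5 luminal prostate markers, 5 were at 1 TPM or more in the MDA PCa 2b library and 2 in RC77 T/E, where TMPRSS2 was at 0.108 TPM and KLK3 and HOXB13 are listed at 0. Of 6 basal epithelial markers, 3 reached 1 TPM in MDA PCa 2b against 6 in RC77 T/E, with KRT5 at 0.00435 and 4027 TPM, respectively. The 2 luminal markers that RC77 T/E carried were the keratins KRT8 and KRT18. Summed, the luminal markers came to between 6168 and 6819 TPM in MDA PCa 2b against 357 to 643 TPM in RC77 T/E, and the basal markers to 44.6 TPM against 9723 to 9770 TPM. The part of this luminal and basal difference in the results below was not tested. Of 6 fibroblast markers, 0 reached 1 TPM in MDA PCa 2b against 1 in RC77 T/E (COL1A1, 8.24 TPM), and their summed level was 2.77 and 9.22 TPM. The sum of 6 leukocyte and endothelial markers was 0.291 and 4.95 TPM, the latter mostly CD14.

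Of the 54 genes, 20 were at or above 1 TPM in MDA PCa 2b, 28 in RC77 T/E and 16 in both. As shares these were 37%, 51.9% and 29.6%, beside 57.9%, 61.7% and 53.9% of all protein-coding genes. Of the others, 12 (22.2% of the 54) reached 1 TPM in RC77 T/E alone and 4 (7.41%) in MDA PCa 2b alone, beside 7.75% and 4% of all protein-coding genes, and 22 were under it in both. Of these 22, 8 (14.8% of the 54) are listed at 0 in both lines, beside 12% of all protein-coding genes. The mean of both lines was 1 TPM or more for 30 of the 54 genes. A gene can pass that filter through a high level in 1 line, which then has to differ. On the scale of log2 of TPM plus 1, 12 of the 30 were higher by 2-fold or more in RC77 T/E, and 7 were so in MDA PCa 2b. The background over 11012 protein-coding genes was 19.1% and 19.7%. The median log2 ratio of RC77 T/E over MDA PCa 2b was 0.19 over the 30 genes and -0.15 over all 11012.

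**Figure D1:**
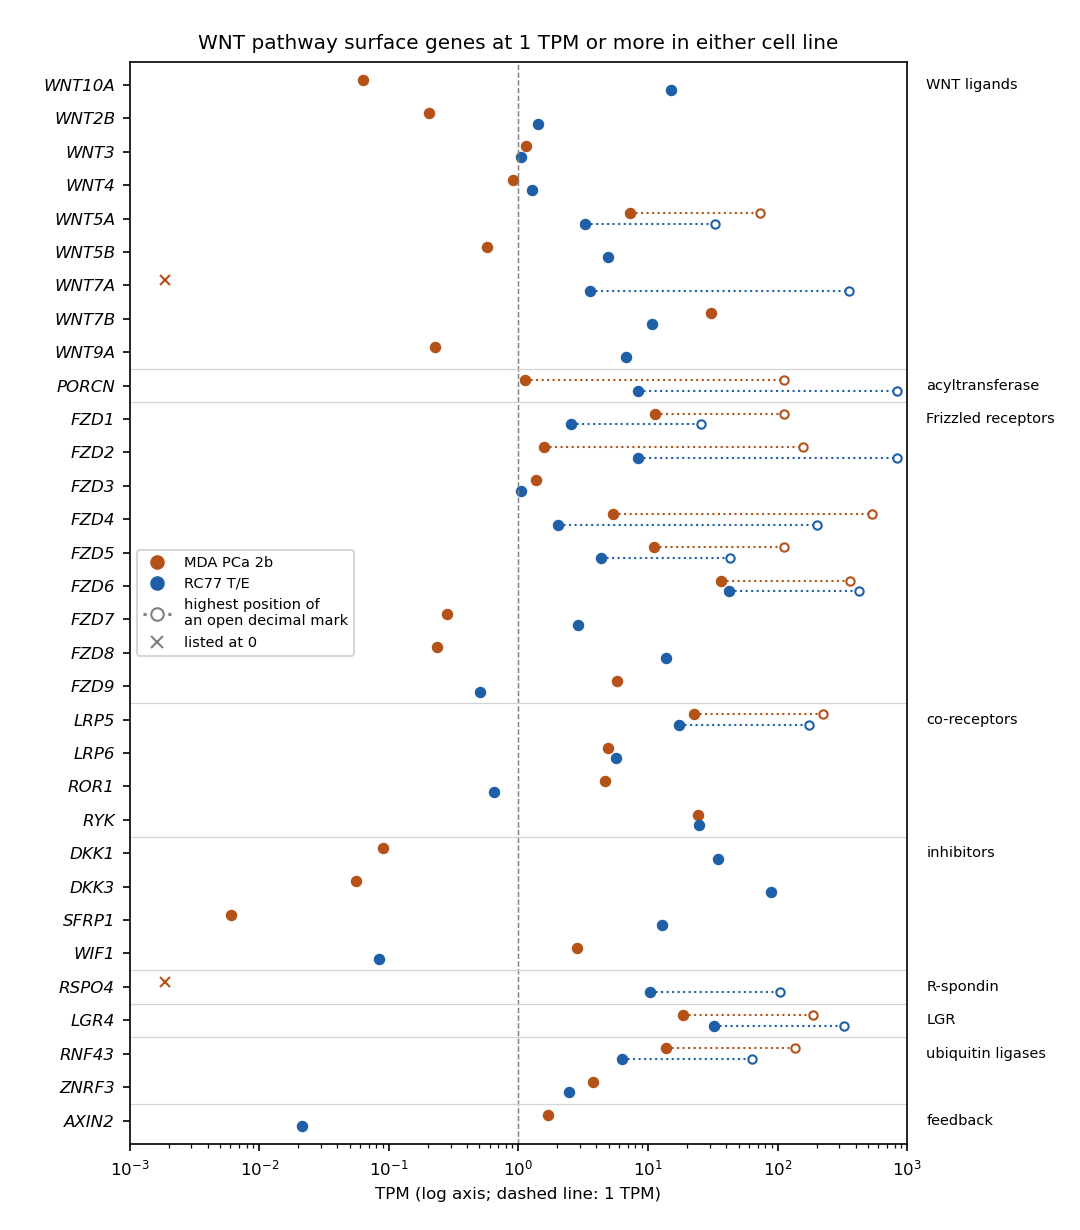
TPM of the 32 genes at 1 TPM or more in either line, grouped by role, on a log axis, with 1 library per line, where filled points are the level (the lowest possible level where the decimal mark is open), open points the highest possible level and crosses genes listed at 0. The inhibitors DKK1, DKK3 and SFRP1 sit above 12 TPM in RC77 T/E and under 0.1 TPM in MDA PCa 2b. WIF1 and AXIN2 are higher in MDA PCa 2b, at 2.85 and 1.68 TPM, and under 0.1 TPM in RC77 T/E.

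With open marks at their lowest position, the largest log2 ratios among the 30 genes were those of the secreted inhibitors DKK3 and DKK1. At the highest position WNT7A (8.48) and RSPO4 (6.72), both listed at 0 in MDA PCa 2b, lay above them. The 9 inhibitors themselves have 0 open marks. DKK3, a Dickkopf protein whose effect on WNT signaling is less settled than that of its relatives (ENSG00000050165, GRCh38 chromosome 11, from 11956207 to 12009769), had a level of 0.0559 TPM in MDA PCa 2b against 89.3 TPM in RC77 T/E. Only 61 of the 11012 genes had a larger log2 ratio than its 6.42. DKK1, which binds LRP5 and LRP6 and takes them from the receptor complex (chromosome 10, between 52314281 and 52318042), had 0.0897 and 34.9 TPM, 390 times as high in RC77 T/E. Its exons share 9.61% of their bases with PRKG1-AS1 on the opposite strand. SFRP1, a soluble protein with a Frizzled-like domain that captures WNT ligands, was at 0.00606 TPM in MDA PCa 2b against 12.9 TPM in RC77 T/E. These 3 inhibitors were thus under 0.1 TPM in MDA PCa 2b and above 12 TPM in RC77 T/E.

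WIF1, another WNT-binding inhibitor (ENSG00000156076, chromosome 12, between 65050626 and 65121305), was the exception. It was at 2.85 TPM in MDA PCa 2b against 0.0839 TPM in RC77 T/E, 33.9 times as high in the former. The other 5 inhibitors were under 1 TPM in both lines, with DKK2 highest at 0.228 TPM in RC77 T/E, and SFRP2, SFRP4 and SFRP5 are listed at 0. Summed over the 9 genes, the inhibitors came to 3.03 TPM in MDA PCa 2b, 94% of it WIF1, and to 137 TPM in RC77 T/E, 64.9% of it DKK3. The sum had a level 45.3 times that of the other line in RC77 T/E.

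The promoters of DKK1 and WIF1 are shown because these inhibitors lie on opposite sides of the comparison. Each runs from 250 bases before to 50 bases after the RefSeq start on GRCh38.p14, 5′ to 3′ on the gene's strand, and capitals mark CTTTGA or its reverse complement TCAAAG, the core that TCF and LEF factors bind.
DKK1 (chr10:52314031-52314330, plus strand): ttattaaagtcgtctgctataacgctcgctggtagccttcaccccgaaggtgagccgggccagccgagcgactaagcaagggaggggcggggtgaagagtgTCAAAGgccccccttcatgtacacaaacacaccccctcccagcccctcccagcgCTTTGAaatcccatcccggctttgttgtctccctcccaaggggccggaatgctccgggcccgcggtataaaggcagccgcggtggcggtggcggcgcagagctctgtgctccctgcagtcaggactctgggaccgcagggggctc
WIF1 (chr12:65121256-65121555, minus strand): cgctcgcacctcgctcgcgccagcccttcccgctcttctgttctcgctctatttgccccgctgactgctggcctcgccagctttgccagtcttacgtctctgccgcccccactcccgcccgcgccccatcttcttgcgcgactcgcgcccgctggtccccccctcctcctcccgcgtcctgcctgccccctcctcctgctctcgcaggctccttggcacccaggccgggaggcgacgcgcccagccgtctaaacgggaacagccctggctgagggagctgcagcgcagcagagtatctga
The DKK1 window holds this core at 2 places, with 1 in each orientation, and the WIF1 window at none. The core occurs on either strand in 12.9% of 35116 RefSeq promoter windows of the same length. Windows were found for 37 of the 54 genes, some with several starts, and 2 of their 44 windows hold it, that of DKK1 and 1 of 2 of PORCN. AXIN2, DKK3 and SFRP1 were among the 17 genes without a window. Both windows shown are rich in CpG dinucleotides, with 20 in DKK1 and 29 in WIF1, beside a median of 14 over all windows. A match is a match of letters and does not show binding.

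Of the 19 WNT ligands, 3 were at 1 TPM or more in the MDA PCa 2b library and 9 in RC77 T/E, beside 57.9% and 61.7% of all protein-coding genes. WNT7B, an epithelial ligand (ENSG00000188064, chromosome 22, between 45920366 and 45977162), had 30.6 TPM in MDA PCa 2b against 10.8 TPM in RC77 T/E, 2.83 times as high in the former. WNT5A, the best known ligand of the branch without β-catenin, was at 7.27 or 72.7 TPM in MDA PCa 2b against 3.29 or 32.9 TPM in RC77 T/E, a ratio of 2.21 in favour of MDA PCa 2b at either position. WNT3 was at 1.14 and 1.04 TPM. These were the only ligands at or above 1 TPM in MDA PCa 2b, so the level of WNT7B or WNT5A led there, depending on the open mark.

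RC77 T/E had the same 3 ligands and 6 more. WNT10A, a ligand of skin, hair and teeth (ENSG00000135925, chromosome 2, between 218880852 and 218899581), had 15.0 TPM against 0.0631 TPM in MDA PCa 2b, 238 times as high. WNT9A was at 0.229 and 6.72 TPM, 29.4 times as high. WNT5B, the paralogue of WNT5A, was at 0.569 and 4.87 TPM, so that the paralogues had opposite directions. WNT7A, the paralogue of WNT7B, was at 3.55, 35.5 or 355 TPM and is listed at 0 in MDA PCa 2b, again opposite to its paralogue. WNT2B (0.204 and 1.41 TPM) and WNT4 (0.901 and 1.27 TPM) lay close to 1 TPM. Of the exon bases of WNT2B, 21.2% are shared with ST7L on the opposite strand, which was at 4.20 and 3.71 TPM. The remaining 10 ligands were under 1 TPM in both lines. WNT10B was highest among them at 0.817 TPM in MDA PCa 2b against 0.518 TPM in RC77 T/E, and WNT1 and WNT8A are listed at 0.

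By the deposited coordinates 8 of the ligand genes lie in 4 neighbouring pairs, and within each pair 1 gene carried most of the RNA. WNT10A and WNT6 are 6618 bases apart, and WNT6 was at 0.285 TPM in RC77 T/E and listed at 0 in MDA PCa 2b. WNT9A and WNT3A are 59065 bases apart, and WNT3A was at 0.0134 TPM in MDA PCa 2b against 0.0906 TPM in RC77 T/E. WNT3 and WNT9B are 46 bases apart, and WNT9B was at 0.0160 TPM in RC77 T/E and listed at 0 in MDA PCa 2b. WNT10B and WNT1 are 6586 bases apart, with WNT1 at 0 in both. The high level of WNT10A or WNT9A in RC77 T/E was therefore not shared by the gene beside it.

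**Figure D2:**
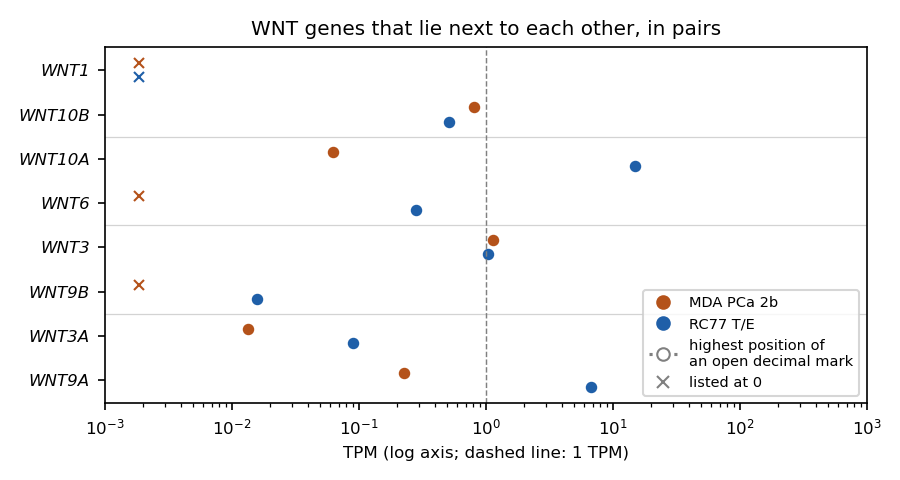
TPM of the 8 WNT genes that form 4 neighbouring pairs, on a log axis, with 1 library per line; grey lines separate the pairs. WNT10A and WNT9A reach 15.0 and 6.72 TPM in RC77 T/E, while their neighbours WNT6 and WNT3A stay under 1 TPM.

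The RNA of genes that serve ligand export was also compared. PORCN, the acyltransferase on which WNT secretion depends (chromosome X, 48508959 to 48520814), was at 1.12, 11.2 or 112 TPM in MDA PCa 2b against 8.36, 83.6 or 836 TPM in RC77 T/E, a ratio of 7.44. WLS, the cargo receptor that brings the acylated ligand to the surface, was taken from a list of 12 secretion and extracellular genes. It was at 54.9 TPM in RC77 T/E and 0.0373 TPM in MDA PCa 2b, a library with WNT7B at 30.6 TPM. On that list 7 genes had a mean of 1 TPM or more. Of these, 4 were higher by 2-fold or more in RC77 T/E (WLS, KREMEN2, TRABD2A and CTHRC1) and 2 in MDA PCa 2b (GPC4 and APCDD1). Over all 11012 protein-coding genes with that mean, the shares were 19.1% and 19.7%. KREMEN2, a receptor through which DKK1 removes LRP6, had a level 24.8 times that of the other line in RC77 T/E. TRABD2A, a protease that inactivates WNT ligands, was at 0.0273 TPM in MDA PCa 2b against 7.03 TPM in RC77 T/E. CTHRC1, a secreted partner of WNT and Frizzled, was at 0.138 and 2.77 TPM. In the other direction, APCDD1, an inhibitor at the membrane, was at 4.62 and 0.0565 TPM and the glypican GPC4 at 6.60 and 0.214 TPM. KREMEN1 was at 8.99 and 9.02 TPM.

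Of the 10 Frizzled receptors, 9 were at 1 TPM or more in a cell line. The counts were 7 for MDA PCa 2b against 8 for RC77 T/E, beside 57.9% and 61.7% of all protein-coding genes. FZD6 was the nearest to equal of the abundant receptors. It was at 36.5 or 365 TPM in MDA PCa 2b against 42.5 or 425 TPM for RC77 T/E, 1.17 times as high in the latter. FZD8 (ENSG00000177283, chromosome 10, between 35638247 and 35642296) was at 0.236 TPM in MDA PCa 2b against 13.7 TPM in RC77 T/E, 58.1 times as high. FZD7, at 0.283 and 2.91 TPM, had a level 10.3 times that of the other line in RC77 T/E, and FZD2, at 1.57, 15.7 or 157 TPM and 8.35, 83.5 or 835 TPM, was 5.31 times as high. Receptors of both directions thus occur in this family.

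The Frizzled genes higher by 2-fold or more in MDA PCa 2b were FZD9, FZD1, FZD4 and FZD5. They were 4 of the 9 with a mean of 1 TPM or more, and 3 passed 2-fold towards RC77 T/E. The background for these directions was 19.7% and 19.1%, respectively. FZD9 (ENSG00000188763, chromosome 7, between 73433778 and 73436120) was at 5.78 TPM in MDA PCa 2b against 0.506 TPM for RC77 T/E, 11.4 times as high. FZD1 had a level 4.42 times that of the other line in MDA PCa 2b, at 11.2 or 112 TPM against 2.55 or 25.5 TPM. FZD4 was 2.67 times as high, at 5.38, 53.8 or 538 TPM against 2.02, 20.2 or 202 TPM. Its exons share 18.9% of their bases with PRSS23 on the opposite strand, which was at 18.2 or 182 TPM in MDA PCa 2b against 25.2 or 252 TPM in RC77 T/E. FZD5 had a level 2.58 times that of the other line in MDA PCa 2b, at 11.1 or 111 TPM against 4.31 or 43.1 TPM. FZD3 was at 1.36 and 1.05 TPM, and FZD10, at 0.0370 TPM in RC77 T/E, is listed at 0 in MDA PCa 2b.

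**Figure D3:**
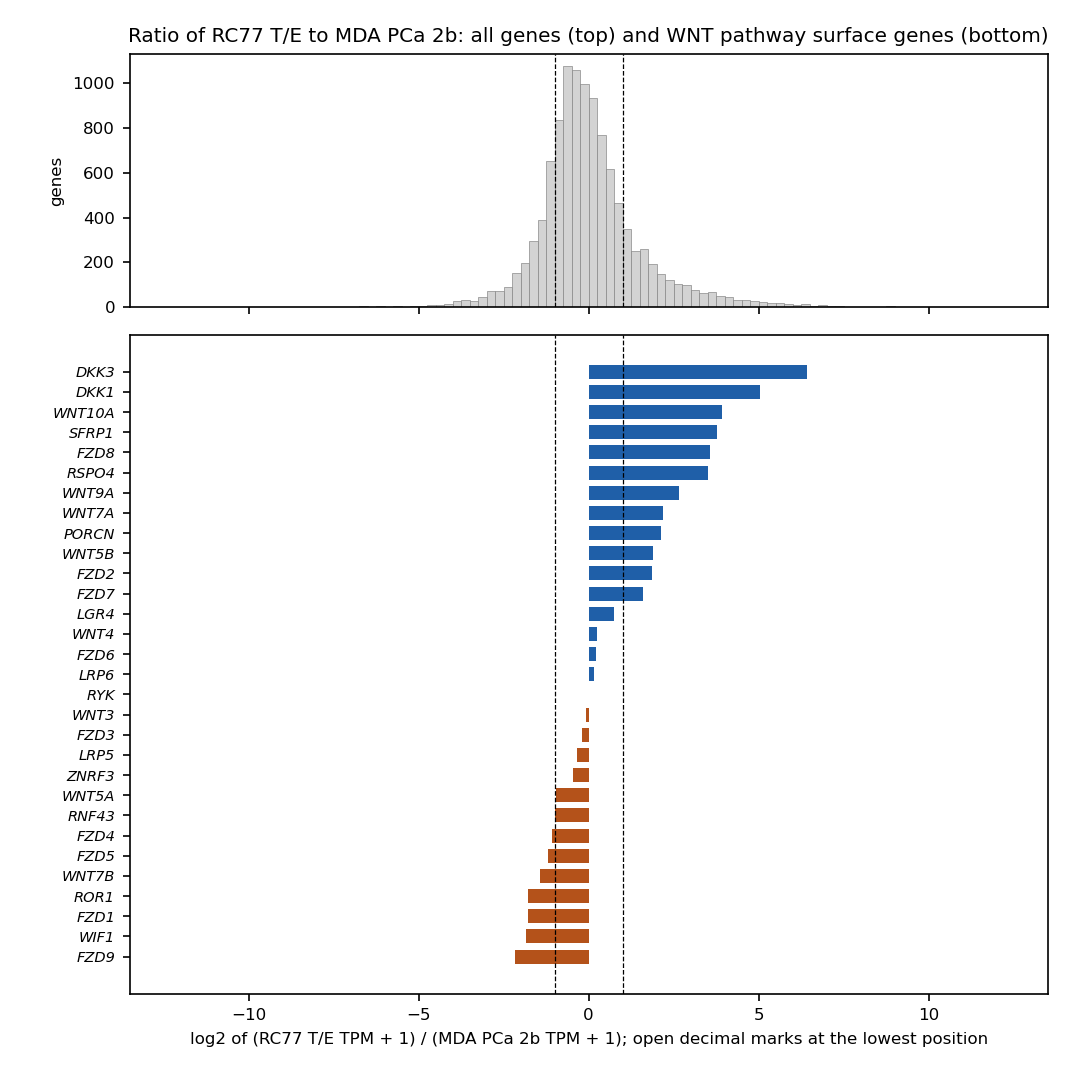
Log2 ratio of RC77 T/E over MDA PCa 2b, with 1 TPM added to each level, for all 11012 protein-coding genes with a mean of 1 TPM or more (top, number of genes per bin) and for the 30 genes described here that pass the same filter (bottom, 1 bar each). Dashed lines mark 2-fold; 12 bars lie beyond it on the RC77 T/E side and 7 on the MDA PCa 2b side, with open decimal marks at their lowest position.

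LRP5, LRP6 and RYK were close in both lines. LRP6 was at 4.94 TPM in MDA PCa 2b against 5.67 TPM in RC77 T/E, and LRP5 at 22.4 or 224 TPM and 17.3 or 173 TPM, 1.30 times as high in MDA PCa 2b. RYK, a receptor with an inactive kinase, was at 24.1 and 24.6 TPM. ROR1 (ENSG00000185483, chromosome 1, between 63774017 and 64181498), a receptor of WNT5A, stood apart at 4.64 TPM in MDA PCa 2b against 0.653 TPM in RC77 T/E, 7.11 times as high in the former. ROR2, its paralogue, was at 0.0187 and 0.0172 TPM.

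In the R-spondin branch, RSPO4 (chromosome 20, between 958452 and 1002311) was at 10.4 or 104 TPM in RC77 T/E and is listed at 0 in MDA PCa 2b, and RSPO1, RSPO2 and RSPO3 are listed at 0 in both. The receptor LGR4 was present in both lines, at 18.7 or 187 TPM in MDA PCa 2b against 32.3 or 323 TPM for RC77 T/E, 1.72 times as high in the latter. LGR5, a stem cell marker of the intestine, was at 0.0331 and 0.00415 TPM, and LGR6, a marker of hair follicle stem cells, at 0.00315 and 0.171 TPM. Of these 7 genes, RSPO4 and LGR4 thus reached 1 TPM in RC77 T/E and LGR4 alone in MDA PCa 2b.

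The ubiquitin ligases were higher in MDA PCa 2b. RNF43 was at 13.6 or 136 TPM in MDA PCa 2b against 6.34 or 63.4 TPM in RC77 T/E, a ratio of 2.15. ZNRF3 was at 3.75 and 2.45 TPM, a ratio of 1.53. RNF43 and WNT5A fell just short of 2-fold with 1 TPM added, at log2 ratios of -0.997 and -0.95, and passed it at the highest position of their open marks, at -1.09 and -1.12. Of the exon bases of RNF43, 57.6% also belong to the gene AC004687.2 on the same strand, and how reads were divided between them is not stated.

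AXIN2, a scaffold of the β-catenin destruction complex that the pathway itself induces (ENSG00000168646, chromosome 17, between 65528563 and 65561648), had 1.68 TPM in MDA PCa 2b against 0.0215 TPM in RC77 T/E. It was thus 78.1 times as high in MDA PCa 2b, but its mean of both lines was under 1 TPM and it is not among the 30 genes above. A further gene, AC004805.1, shares 25.2% of its exon bases on the same strand. ZNRF3 and RNF43, which the pathway also induces, were higher in the same line, at ratios of 1.53 and 2.15. DKK1 went the other way, at 0.0897 and 34.9 TPM. Its promoter window holds the core of TCF and LEF factors and those of RNF43 do not, while AXIN2 and ZNRF3 had no window. The activity of the pathway in either line was not tested.

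Known targets of β-catenin outside the set were read for comparison, some of which (LEF1, TCF7, APCDD1 and NOTUM) also stand on another list here. Of these 14 genes, 9 had the higher level in MDA PCa 2b against 5 in RC77 T/E, beside 46.6% and 41.4% of all protein-coding genes. Among the 8 with a mean of 1 TPM or more, 4 were at least 2-fold higher in MDA PCa 2b (LEF1, APCDD1, SOX9 and TNFRSF19) and 3 in RC77 T/E (CD44, FERMT1 and TCF7). LEF1 was at 8.58 TPM in MDA PCa 2b against 0.0497 TPM for RC77 T/E, 173 times as high. TNFRSF19, a receptor of the tumour necrosis factor family, was at 2.85 and 0.755 TPM, and the transcription factor SOX9 had a level 2.44 times that of the other line in MDA PCa 2b. CD44, an adhesion receptor that also marks basal cells, was at 0.786 and 364 TPM, and FERMT1, an epithelial integrin activator, at 0.0647 and 42.5 TPM.

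The other targets under 1 TPM in both lines, named after their values were seen, went in both directions. NKD2 was at 0.386 TPM in MDA PCa 2b against 0.0298 TPM in RC77 T/E, SP5 at 0.358 and 0.0140 TPM, TNFRSF11B at 0.0346 and 0.00688 TPM, and NOTUM at 0.131 TPM and listed at 0. ASCL2, at 0.475 and 0.724 TPM, and NKD1, at 0.0675 and 0.0880 TPM, had the higher level in RC77 T/E.

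Downstream of the receptors, CTNNB1, AXIN1 and APC were close in both lines, while GSK3B was not. Of 20 cytoplasmic and nuclear genes, 16 were at 1 TPM or more in the MDA PCa 2b library and 19 in RC77 T/E. The shares of all protein-coding genes were 57.9% and 61.7%. Among the 19 with a mean of 1 TPM or more, 5 were higher by 2-fold or more in RC77 T/E, with 2 in MDA PCa 2b. The background for these calls was 19.1% and 19.7%. The median log2 ratio of the 19 was -0.06, beside -0.15 over all 11012 genes. CTNNB1, which encodes β-catenin, was at 15.1 or 151 TPM in MDA PCa 2b against 18.8 or 188 TPM for RC77 T/E, 1.24 times as high in the latter. AXIN1 was at 17.5 and 16.8 TPM and APC at 4.36 and 5.38 TPM. GSK3B, a kinase that marks β-catenin for destruction, had a level 3.75 times that of the other line in RC77 T/E. Its paralogue GSK3A had the opposite direction, 2.37 times as high in MDA PCa 2b. With 1 TPM added, the log2 ratio of GSK3A was -0.91, short of 2-fold.

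The TCF and LEF factors were divided between the lines. LEF1 was the only one of the 4 at or above 1 TPM in MDA PCa 2b, and the only one under 1 TPM in RC77 T/E. TCF7 was at 0.536 TPM in MDA PCa 2b against 2.67 TPM in RC77 T/E, TCF7L1 at 0.0585 and 6.60 TPM, and TCF7L2 at 0.573 and 4.63 TPM. Their cofactors of the BCL9 family also had opposite directions, with BCL9 2.79 times as high in MDA PCa 2b and BCL9L 4.57 times as high in RC77 T/E.

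**Figure D4:**
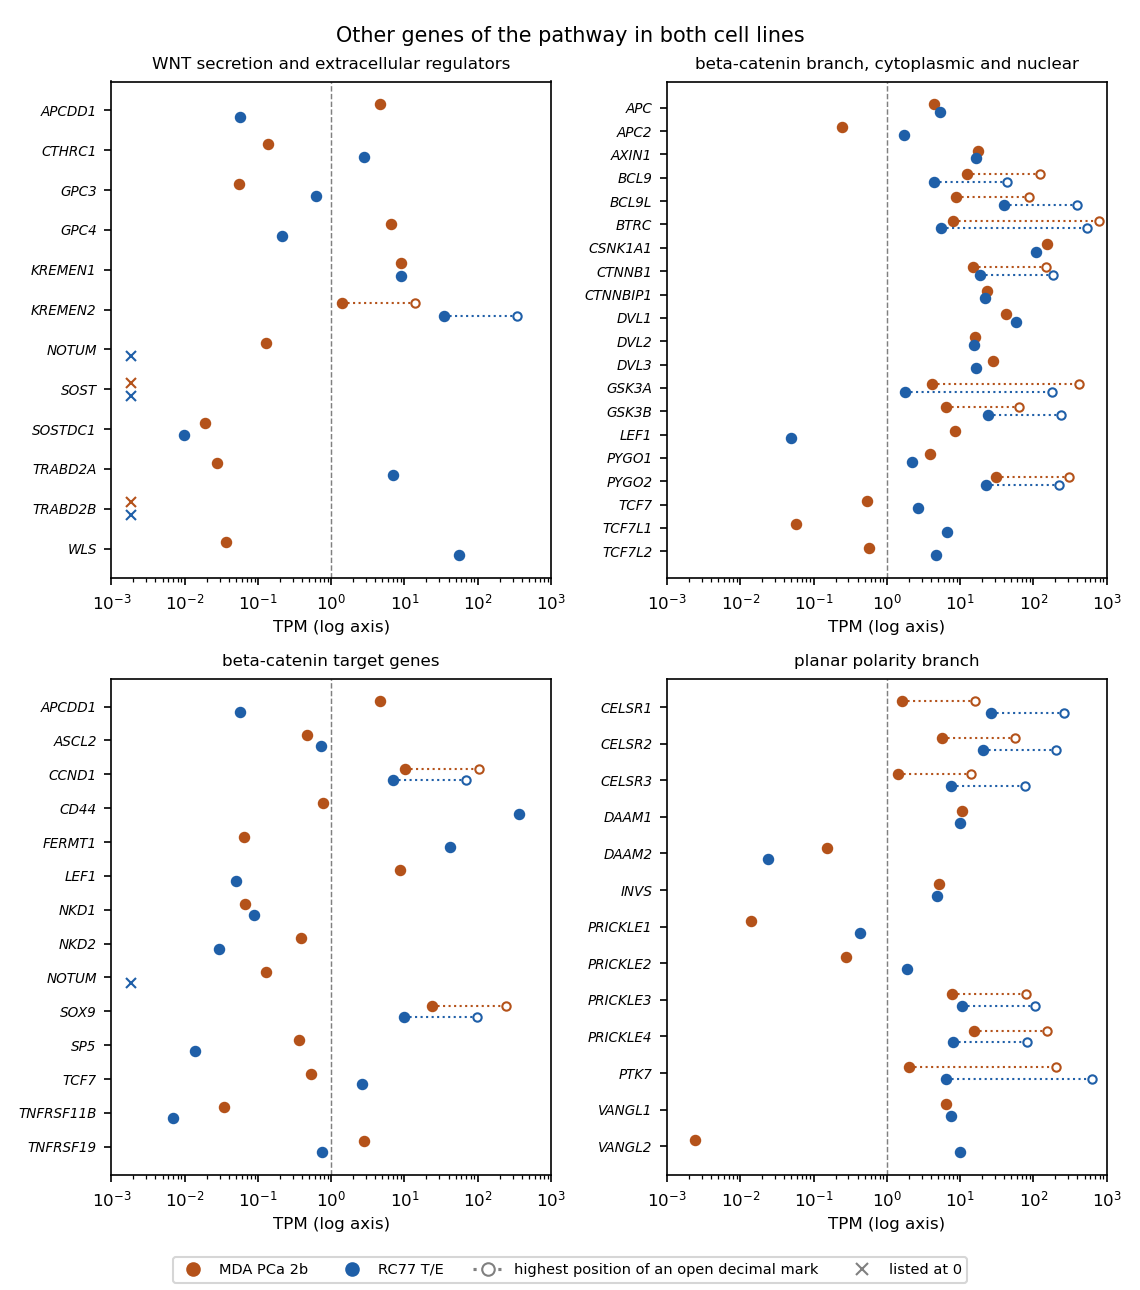
TPM of the other pathway genes in both lines, in 4 lists, on a log axis, with 1 library per line; symbols are filled points for the level, open points for the highest possible level where the decimal mark is open and crosses for genes listed at 0. WLS and TCF7L1 lie far to the right in RC77 T/E, LEF1 and APCDD1 in MDA PCa 2b, while CTNNB1, AXIN1 and APC nearly coincide.

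The planar polarity branch orients cells within an epithelium. Of its 13 genes analysed, 9 (69.2%) had the higher level in RC77 T/E, while MDA PCa 2b was higher for 4 (30.8%), beside 41.4% and 46.6% of all protein-coding genes. Among the 11 with a mean of 1 TPM or more, 6 were higher by 2-fold or more in RC77 T/E, with 0 in MDA PCa 2b, and the background was again 19.1% and 19.7%. Their median log2 ratio was 1.17. VANGL2, a core membrane protein of the branch, was at 0.00244 TPM in MDA PCa 2b against 9.94 TPM in RC77 T/E, while its paralogue VANGL1 was at 6.43 and 7.62 TPM. The adhesion receptors CELSR1, CELSR2 and CELSR3 were 16.4, 3.67 and 5.31 times as high in RC77 T/E. DAAM1 and INVS, which act inside the cell, were within a ratio of 1.07 in both lines.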

How the data were processed

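Libraries were paired-end and strand-specific. The authors deposited 1 table of TPM per locus, with the mean and standard error of both cell lines, which served only to restore decimal marks. The submitters' processing notes name CASAVA, FastQC 0.11.9, Trimmomatic 0.38, Salmon 1.2.0 and GRCh38. The annotation is not given in the sources used here, and the deposited locus names have the form Cufflinks uses. TPM keeps no depth, so no counting interval is given.

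In 10361 values of MDA PCa 2b and 11082 of RC77 T/E the decimal mark was missing. Candidate positions left 1 to 3 digits to the left and 3 or more to the right, and those giving the deposited mean and standard error were kept: 1 position in 16284 of 22791 rows and several in 6507. The restoration was tested on simulated data. In 1998 rows of the study's own spreadsheet, 1315 of 1315 rows with 1 position had the same values, and the lowest position was right in 527 of 683 others (77.2%), so it was used for counts and log2 ratios.

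Loci of a symbol were summed. The log2 ratio had 1 TPM added, which understates low genes. Genes were named when at 1 TPM or more in either line; list genes when at least 2-fold apart with a mean of 1 TPM or more, at most 4 per direction, plus WLS, CTNNB1, LEF1 and TCF7. Some outside this rule are named for contrast. The members and lists were chosen with earlier results of these data known. Of the 54 genes, 54 started within 100 kb of their GENCODE release 29 position, from which exon overlaps were taken. SCRIB was not analysed here. Further luminal markers are not reported here. Python 3.11.15, numpy 2.4.6 and matplotlib 3.10.9 were used.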

Additional observations from a re-analysis of the deposited data

How the results depend on the processing

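Counts and medians were recomputed under each alternative, and a value was held to have moved when it changed by more than 1.5 times. Of the recomputed counts and medians, 71 did not move and 7 moved. Of the recomputed log2 ratios of single genes, 72 did not move, 23 moved and 1 turned. With open marks at the highest position, that of WNT7A went from 2.19 to 8.48 and that of RSPO4 from 3.51 to 6.72. With a threshold of 5 TPM in place of 1 TPM, 11 of the 54 genes remained in MDA PCa 2b, 16 in RC77 T/E cells and 6 in both. With open decimal marks at the highest position as well, these counts were 13, 21 and 12. The shares of all protein-coding genes at 5 TPM are not given, so these counts have no background beside them. Over the genes described, the median log2 ratio was 0.34 when centred on that of all genes, 0.32 with upper quartile scaling and 0.0536 without the filter on low values, which adds genes near 0. Centring moves every log2 ratio by 0.15 and turned that of WNT3 from -0.07 to 0.085. It also took FZD4 from -1.08 to -0.93, short of 2-fold. The genes called higher in MDA PCa 2b then went from 7 to 6, while those in RC77 T/E stayed at 12. The background moved too: of all genes called 2-fold apart, 49.2% favoured RC77 T/E before centring and 57.8% after it. Upper quartile scaling gave the same counts, and no filter gave 8 for MDA PCa 2b. That count rose to 9 with 0.1 TPM added, and also with open marks at the highest position. The background share was then 48.2% and 48%, respectively. For the genes described, the RC77 T/E count was 12 each time. Adding 0.1 TPM in place of 1 TPM widened ratios against values near 0, such as that of SFRP1 from 3.78 to 6.93. No paired analysis was possible because only 1 library represents each line. Without a known depth, values near 0 show little, and a gene listed at 0 has no limit of detection to be set against.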

Other observations

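The genes in this paragraph were chosen after the values above had been seen. The Groucho co-repressors, which bind TCF and LEF factors and hold target genes silent, differed by member. TLE1 was at 10.7 TPM in MDA PCa 2b against 9.26 TPM in RC77 T/E. TLE2 was at 7.34 and 0.901 TPM, and TLE3 at 48.5 or 485 TPM and 5.49 or 54.9 TPM, 8.14 and 8.85 times as high in MDA PCa 2b. TLE4 was at 0.548 and 4.15 TPM, 7.57 times as high in RC77 T/E. At the surface, TPBG, a membrane glycoprotein known to inhibit β-catenin signaling, was at 0.00485 TPM in MDA PCa 2b against 156 TPM in RC77 T/E, above each of the 9 inhibitors described. FRZB, a relative of the SFRP genes, was at 0.00628 and 0.130 TPM. TSPAN12, a partner of FZD4, had a ratio of 2.23 in favour of MDA PCa 2b and FZD4 a ratio of 2.67, while NDP, the ligand they share, was at 0.0356 TPM and listed at 0. RECK, through which WNT7 ligands signal in blood vessels of the brain, was at 1.27 and 1.36 TPM.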
